A study of Mus musculus with 6 samples.

Results

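The 10 miRNAs described here are both arms of the hairpins miR-128-1, miR-128-2, miR-218-1, miR-218-2, miR-139 and miR-153. They were chosen by name, with earlier results of these data known, and all 10 were found among the 782 mature miRNA names that held reads. They took up 564 of the 18305 sequences annotated as miRNAs. The data are short RNAs bound to Argonaute (Ago) proteins, which carry guide RNAs in the RNA-induced silencing complex (RISC), from the brains of 6 male mice on the C57BL/6J background at 3 months of age. The 3 control mice were WT, and the 3 Tau tg mice expressed tau45-230, a piece of the human tau protein, from the Thy 1.2 promoter, which is active in neurons. The sample labels name hippocampus, while the protocol describes cortex and hippocampus combined. The comparison addressed which RISC-bound short RNAs (R-sRNAs) differ in a brain with tau-driven neurotoxicity.

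A miRNA hairpin is cut into a short duplex, and Ago keeps mainly 1 strand of it, the guide, while the other strand, the passenger, is mostly lost. The guides of these families are known as abundant brain miRNAs, and miR-128-3p and miR-218-5p are enriched in neurons. Their hairpins lie in introns of protein-coding genes, so that hairpin and host mRNA can come from the same transcript. miR-128 and miR-218 are each made from a pair of loci that give the same guide but different passengers, so the passenger arm tells the loci apart.

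All hairpins were placed on GRCm38 from RefSeq and GENCODE, on the strand of their host gene and within an intron, with no exon of a host transcript overlapping. miR-128-1 lies at chr1:128202361-128202430 (+) in R3hdm1, and miR-128-2 at chr9:112118636-112118711 (-) in Arpp21, a gene for a cAMP-regulated phosphoprotein. miR-218-1 lies at chr5:48223942-48224051 (+) in Slit2 and miR-218-2 at chr11:35616816-35616925 (+) in Slit3, both genes for axon guidance ligands. miR-139 lies at chr7:101475376-101475443 (+) in Pde2a, a phosphodiesterase gene, and miR-153 at chr12:117250817-117250885 (+) in Ptprn2, a gene for a dense-core vesicle protein. The annotation also places Gm45837 over miR-139 and Gm5441 over miR-153.

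The mature sequences from RefSeq are shown because the arms differ in the seed, the stretch that pairs with target mRNAs. Capitals mark bases 2 to 8, the first line of each family being the guide.
mmu-miR-128-3p: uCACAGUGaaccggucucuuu
mmu-miR-128-1-5p: cGGGGCCGuagcacugucuga
mmu-miR-128-2-5p: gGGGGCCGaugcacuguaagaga
mmu-miR-218-5p: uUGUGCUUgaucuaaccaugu
mmu-miR-218-1-3p: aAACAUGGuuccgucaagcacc
mmu-miR-218-2-3p: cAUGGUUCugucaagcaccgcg
mmu-miR-139-5p: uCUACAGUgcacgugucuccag
mmu-miR-139-3p: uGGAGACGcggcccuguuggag
mmu-miR-153-3p: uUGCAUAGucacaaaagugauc
mmu-miR-153-5p: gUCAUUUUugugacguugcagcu

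Both miR-128 passengers have the same seed, while the miR-218 passengers do not. The 6mer seed viability of the study is the percentage of cells that survive a short RNA with that seed at bases 2 to 7, averaged over 3 murine cell lines, so that a low value marks a toxic seed. It is 49.5% for miR-128-3p, 72.2% for miR-218-5p, 78.8% for miR-139-5p and 94.7% for miR-153-3p. The miR-128 passengers have a seed with a viability of 26.4%, and miR-139-3p one of 32.4%, both below that of their guide. The other passengers have seeds with 73.9% for miR-218-1-3p, 83.5% for miR-218-2-3p and 63.8% for miR-153-5p. Each guide was nearly alone in Ago with its seed. miR-128-3p held 97.7% to 98.2% of all RPM (reads per 1000000 reads of the sample) with its seed, miR-218-5p 97.5% to 98.9%, miR-139-5p 97.9% to 98.7% and miR-153-3p 93.7% to 98.9%. For miR-153-3p, the next miRNA with its seed was miR-448-3p, at a mean of 91.3 RPM.

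The 6 samples held 998248 to 6879551 reads, recovered from the deposited RPM values, and 82.7% to 92.4% of RPM were miRNAs. A floor of 3 reads was 0.427 RPM in the deepest sample, Tau tg 1, and 2.75 RPM in the shallowest, WT 3. Floors and intervals cover counting error only. The summed RPM of 5 neuronal miRNAs was 142378 to 151981 in WT and 141024 to 160170 in Tau tg. These 5 include miR-128-3p, which is also among the miRNAs described here, so the sum is not independent of them. The sum also joins differences of opposite sign. On the scale of log2(RPM + 1), 4 of the 5 were above 0 in Tau tg against WT, miR-9-5p with 0.53. The most abundant, miR-124-3p, was at -0.36. None of the 5 passed an unadjusted p under 0.05 with limma, edgeR or DESeq2. Nor did any of the 19 markers of oligodendrocytes, myeloid and lymphoid cells, vessels, red blood cells and choroid plexus. The 4 epithelial miRNAs of the miR-200 family had a summed RPM of 2327 to 8800 in WT and 1913 to 2102 in Tau tg. Of them, miR-200a-3p, miR-200b-3p and miR-429-3p were lower in Tau tg at an unadjusted p under 0.05 with limma. edgeR also called these 3, and DESeq2 called all 4, miR-141-3p included, 2 of them after adjustment. Their part in the values below was not tested.

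miR-128-3p, which targets many mRNAs of neuronal excitability, was the highest member in every sample and the fifth most abundant miRNA by its mean over all samples. It held 14221, 31713 and 42415 RPM in WT 1, 2 and 3, and 30663, 34147 and 34976 RPM in Tau tg 1, 2 and 3. The Tau tg mice lay within the range of the WT mice, which differed among themselves by 2.98 times. miR-218-5p, a miRNA known from motor neurons and hippocampus, held 13984, 7919 and 9307 RPM in WT mice and 11750, 15344 and 12396 RPM in Tau tg mice. In whole tissue, fewer cells of a type and less RNA per cell cannot be told apart. WT 1 was the lowest sample in miR-128-3p and the second highest in miR-218-5p, where the groups overlapped through this mouse alone. The ratio of miR-128-3p to miR-218-5p was 1.02 in WT 1 and 2.23 to 4.56 in the other samples.

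miR-139-5p, encoded within a phosphodiesterase gene, held 5500, 4316 and 4452 RPM in WT mice and 7001, 5460 and 4894 RPM in Tau tg mice. miR-153-3p, known to target mRNAs of presynaptic proteins, held 5642, 4627 and 5029 RPM in WT mice and 5961, 4043 and 3850 RPM in Tau tg mice. The groups overlapped for both miRNAs, and over all samples the level of one overlapped with that of the other. Within the mice, however, their order was not the same in the groups. The ratio of miR-139-5p to miR-153-3p was 0.975, 0.933 and 0.885 in WT and 1.17, 1.35 and 1.27 in Tau tg, with no overlap. Its means were 0.931 ± 0.0448 (SD, n = 3) and 1.27 ± 0.0883 (SD, n = 3), and an exact permutation test, two-sided, gave p = 0.1, the smallest possible for 3 mice against 3. This ratio does not depend on how the libraries are scaled, and it was chosen after the values were seen. How many ratios of other miRNA pairs separate the groups was not computed, so this non-overlap has no background beside it.

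The passengers were far lower, and no passenger in any sample reached the level of a guide. miR-139-3p held 95.6, 84.0 and 89.0 RPM in WT mice and 192, 200 and 212 RPM in Tau tg mice. All Tau tg mice lay above all WT mice, and the mice of a group differed by at most 1.14 times. Its group means were 89.5 ± 5.78 RPM and 202 ± 10.1 RPM (SD, n = 3), a ratio of 2.25. miR-153-5p held 120, 202 and 51.4 RPM in WT mice and 132, 23.4 and 178 RPM in Tau tg mice, and its highest and lowest samples in each group were 3.93 and 7.60 times apart.

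miR-218-2-3p, the passenger made from Slit3, held 44.97, 2.71 and 15.6 RPM in WT mice and 57.2, 78.6 and 108 RPM in Tau tg mice. Its groups did not overlap, although WT 1 lay close to the lowest Tau tg mouse and the WT mice were spread over 16.6 times. In reads, WT 2 held only 4 and WT 3 held 17. miR-218-1-3p, made from Slit2, held 15.9, 36.6 and 8.26 RPM in WT mice and 15.1, 11.7 and 3.27 RPM in Tau tg mice, with overlap.

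miR-128-2-5p, made from Arpp21, held 23.9, 67.1 and 3.67 RPM in WT mice and 36.9, 22.6 and 28.6 RPM in Tau tg mice, the Tau tg mice lying within the WT range. miR-128-1-5p, made from R3hdm1, had 2, 0 and 1 reads in WT, at or under the floor in each mouse, and 59, 55 and 4 reads in Tau tg. These reads correspond to 8.40, 46.0 and 1.64 RPM in Tau tg, a spread of 28.1 times. Over the pooled libraries the 118 reads of Tau tg against 3 of WT gave a ratio of 17.3, with a 95% counting interval of 5.79 to 85.2, and 55 of the 118 reads were a single sequence in Tau tg 2. The ratio of the group means, which gives each mouse the same weight, was 30.2.

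**Figure D1:**
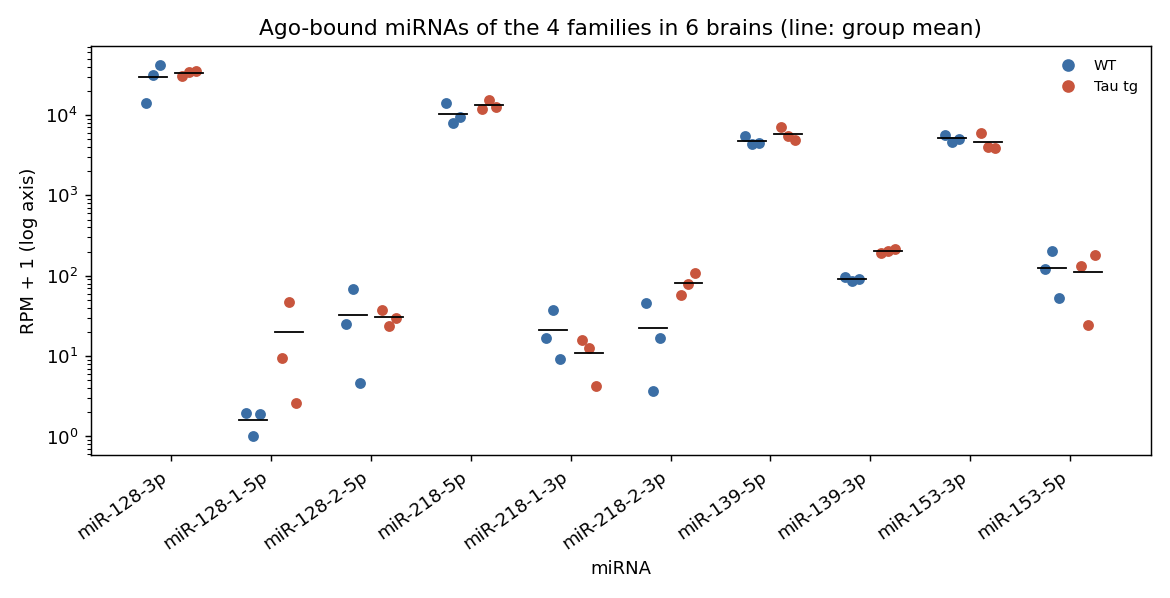
RPM + 1 of each miRNA on a log axis, with a point per mouse and a line at the group mean. The guides sit near or above 3850 RPM in both groups, and the Tau tg points of miR-139-3p, 192 to 212 RPM, lie above its WT points, 84.0 to 95.6 RPM.

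As a description of the same contrast, limma was fitted across 689 miRNAs whose mean reached 1 RPM. By an unadjusted p under 0.05 it called 3 of the 10 members, all passengers and all higher in Tau tg, where 3.63% of all miRNAs were called in either direction and 2.03% were called as higher. The difference of miR-218-2-3p was 2.49 ± 0.917 (SE) on the scale of log2(RPM + 1), with a p of 0.0153, and it was 1.53 without WT 2. That of miR-128-1-5p was 2.76 ± 1.29 (SE), with a p of 0.0486, and rests on WT values at or under the floor. It ran from 1.68 without Tau tg 2 to 3.76 without Tau tg 3, and from 1.56 with a pseudocount of 5 RPM to 4.81 by edgeR. That of miR-139-3p was 1.16 ± 0.458 (SE), with a p of 0.0222. None of the 689 miRNAs passed after Benjamini-Hochberg adjustment, and the adjusted p of each of the 3 was 0.896. edgeR called 29 miRNAs at an unadjusted p under 0.05 and none after adjustment, and DESeq2 called 5 after adjustment, no member among them.

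The median difference of all 689 miRNAs was 0.25 on this scale, so values are also given relative to it. Relative to the median, miR-218-2-3p was higher by 2.25, miR-128-1-5p by 2.52 and miR-139-3p by 0.92. The guides lay near the median, at 0.07 for miR-128-3p, 0.13 for miR-218-5p and 0.03 for miR-139-5p, with miR-153-3p at -0.41. The median over the 10 members was 0.34, and 7 of 10 were above 0, as were 438 of 689 miRNAs. The direction of miR-128-3p and that of miR-128-2-5p changed under DESeq2, where they were -0.03 and -0.25. In 3 of 10 members the RPM of the groups did not overlap, with Tau tg higher, where this held for 6.53% of all miRNAs tested. The 3 were those called by limma, among them miR-128-1-5p, which passed the filter only through Tau tg.

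The share of the passenger among the reads of both arms was computed next, since a share within a mouse is free of library scaling. In miR-139 it was 1.71%, 1.91% and 1.96% in WT and 2.67%, 3.53% and 4.16% in Tau tg. The 95% Wilson interval of the highest WT mouse, 1.61% to 2.38%, ended below that of the lowest Tau tg mouse, 2.54% to 2.82%. The means were 1.86% ± 0.133 and 3.45% ± 0.745 (SD, n = 3), and the exact permutation p was 0.1, adjusted to 0.2 over 6 shares. In miR-218 the passenger share was 0.434%, 0.494% and 0.256% in WT and 0.611%, 0.585% and 0.890% in Tau tg. The groups did not overlap, but the intervals of WT 2, 0.382% to 0.638%, and Tau tg 2, 0.485% to 0.706%, did. Its exact permutation p was also 0.1, adjusted to 0.2. With these groups an exact test cannot pass 0.05.

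In miR-128 the passengers made up 0.174%, 0.211% and 0.0108% in WT and 0.147%, 0.200% and 0.0865% in Tau tg (exact permutation p = 0.9). In miR-153 the share was 2.09%, 4.18% and 1.01% in WT and 2.16%, 0.576% and 4.42% in Tau tg (exact permutation p = 1). Mice of the same group thus differed more than the groups in both families. Over 176 other hairpins with both arms named and a summed mean of at least 100 RPM, the minor arm took up a median of 4.17%, with quartiles of 0.857% and 16.3%. The mean share was lower than in miR-128 for 17 of the 176, lower than in miR-218 for 34, lower than in miR-153 for 69 and lower than in miR-139 for 73. In 8.52% of these hairpins the minor arm share was higher in all Tau tg mice than in all WT mice, against 2 of the 4 families here.

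**Figure D2:**
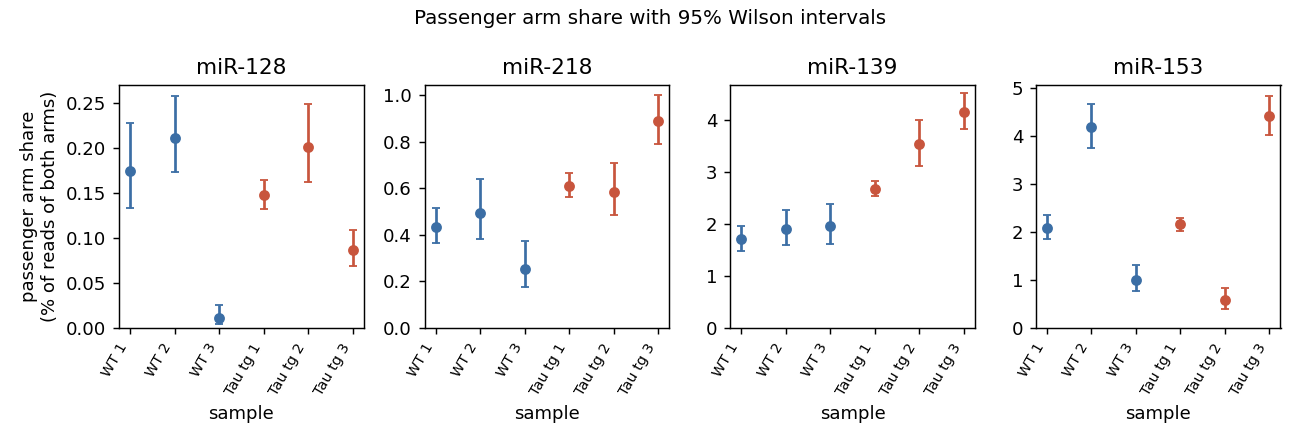
Passenger share as a percent of the reads of both arms, per mouse, with 95% Wilson intervals as bars; each panel has its own axis from 0. The Tau tg points lie above the WT points in miR-218 and miR-139, and the groups overlap in miR-128 and miR-153.

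The miR-139 hairpin is printed here because its arms differed in the comparison above, with both mature arms in capitals, the guide first. It is taken from RefSeq on GRCm38 and lies at chr7:101475376-101475443 (+).
Mir139: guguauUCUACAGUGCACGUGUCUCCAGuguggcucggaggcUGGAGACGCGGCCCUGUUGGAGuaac

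The reads of miR-139-3p also differed in their 3′ ends, a feature examined after the values were seen. Reads that matched the hairpin up to their last base made up nearly all of the arm in WT, whereas 13 sequences carried bases at the 3′ end that the hairpin does not encode. These sequences held 6, 3 and 3 reads in WT and 343, 67 and 114 reads in Tau tg. As a share of the arm they were 2.94%, 2.42% and 3.09% in WT and 25.4%, 28.0% and 22.0% in Tau tg, with no overlap and an exact permutation p of 0.1. At a similar number of reads of the arm, 204 in WT 1 and 239 in Tau tg 2, these mice held 6 and 67 such reads. Over 205 miRNAs with at least 90 reads in each sample, this share was higher without overlap in Tau tg for 4.88%, and the difference of miR-139-3p was the third in size. Rare sequences had been removed from the deposited values. No tailed sequence held 15 or more reads in a WT mouse, against 8, 2 and 4 in Tau tg 1, 2 and 3. Whether tails found in WT alone were lost in this way was not tested.

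The tailed sequences were not the same in each Tau tg mouse. The 4 with the highest mean RPM are shown, with the bases not encoded by the hairpin in capitals.
miR-139-3p, tail of A after base 21: uggagacgcggcccuguuggaA
miR-139-3p, tail of A after base 22: uggagacgcggcccuguuggagA
miR-139-3p, tail of U after base 21: uggagacgcggcccuguuggaU
miR-139-3p, tail of U after base 20: uggagacgcggcccuguuggU

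The first held 0, 31 and 21 reads in Tau tg 1, 2 and 3 and 1 to 3 reads in each WT mouse. The second held 0, 27 and 21 reads in Tau tg and none in WT. The third held 59, 0 and 39 reads in Tau tg and 1 read in WT 1 only. The last held 97 reads in Tau tg 1, none in the other Tau tg mice, and 1 read each in WT 1 and WT 2. Over all tailed sequences with the reference 5′ end, the first added base was A in 61 reads and U in 250 reads of Tau tg 1, A in 59 and U in 0 of Tau tg 2, and A in 50 and U in 64 of Tau tg 3. Without the tailed sequences, miR-139-3p held 92.7, 82.0 and 86.2 RPM in WT mice and 144, 144 and 166 RPM in Tau tg mice, so the groups still did not overlap and the ratio of means was 1.74. In the guide of the same hairpin the groups overlapped. Among reads of miR-139-5p with the reference 5′ end, 93.9% to 94.7% in WT and 93.3% to 94.1% in Tau tg matched the hairpin to the last base.

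**Figure D3:**
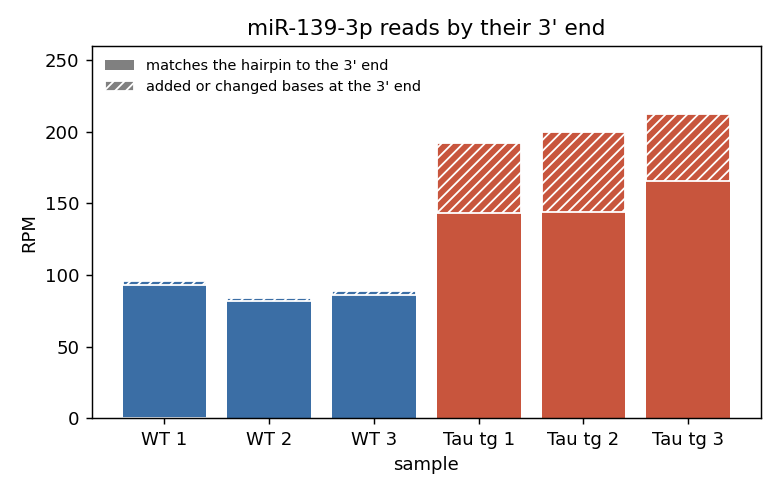
RPM of miR-139-3p per mouse, split into reads that match the hairpin to the 3′ end (plain) and reads with added or changed bases there (hatched). The hatched part is 2.03 to 2.81 RPM in WT and 46.6 to 56.0 RPM in Tau tg.

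The loci of miR-128 and miR-218 were compared through their passengers. miR-218-1-3p, from Slit2, made up 26.2%, 93.1% and 34.6% of the miR-218 passengers in WT and 20.9%, 13.0% and 2.94% in Tau tg. All WT mice lay above all Tau tg mice, with means of 51.3% ± 36.5 and 12.3% ± 8.98 (SD, n = 3), and the exact permutation p was 0.1, adjusted to 0.2. The 95% Wilson intervals of WT 1, 19.4% to 34.3% on 130 reads, and of WT 3, 19.4% to 53.8% on 26 reads, overlapped with those of Tau tg 1, 17.6% to 24.6%, and Tau tg 2, 7.88% to 20.6%. The value of WT 2 was decided by a single sequence, which begins at base 4 of miR-218-1-3p and held 49 of its 54 reads. Without WT 2 the difference between the groups went from -39.0 to -18.1 percentage points. This sequence is shown beside miR-218-2-3p, since the shift gives both the same bases 2 to 8, in capitals.
miR-218-1-3p, from base 4: cAUGGUUCcgucaagcaccaug
mmu-miR-218-2-3p: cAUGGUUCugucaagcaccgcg

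miR-128-1-5p, from R3hdm1, made up 3.77%, 0% and 19.996% of the miR-128 passengers in WT and 18.6%, 67.1% and 5.40% in Tau tg (exact permutation p = 0.3). WT 2 had 0 of 99 reads, with an upper Wilson bound of 3.74%, and WT 3 had 1 of only 5 reads. The high value of Tau tg 2 rested on 1 sequence with all 55 reads of miR-128-1-5p in that mouse, and without Tau tg 2 the difference of 22.4 percentage points became 4.06.

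The guides could be traced to a locus too, where a read runs past the bases that both hairpins share. This measure was added after the data were seen. The guides with their next 3 bases are shown, with the first base that differs in capitals, base 22 in miR-128 and base 23 in miR-218.
Mir128-1: ucacagugaaccggucucuuuUuc
Mir128-2: ucacagugaaccggucucuuuCcc
Mir218-1: uugugcuugaucuaaccaugugCu
Mir218-2: uugugcuugaucuaaccaugugGu

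Of the longer miR-218-5p reads, those with the base of Slit3 held 866, 565 and 282 RPM in WT mice and 1009, 921 and 871 RPM in Tau tg mice. Those with the base of Slit2 held 6.56, 3.39 and 27.5 RPM in WT mice and 7.68, 33.5 and 28.6 RPM in Tau tg mice. These were 14, 5 and 30 reads in WT and 54, 40 and 70 reads in Tau tg. The base of Slit2 thus took 0.596% to 8.90% of the assigned guide reads. That was below the Slit2 share of passengers in 5 of 6 samples and close to it in Tau tg 3, with 3.18% and 2.94%. In miR-128 the order was the opposite. The base of R3hdm1 took 90.2%, 91.3% and 91.7% of the assigned guide reads in WT and 88.1%, 91.6% and 91.6% in Tau tg, above its share of passengers in all 6 samples. Between the groups the exact permutation p was 0.8 for miR-128 and 1 for miR-218.

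These assigned reads are a minority of each guide. Reads that run past the shared bases made up 23.6% to 28.7% of miR-128-3p and 10.4% to 18.2% of miR-218-5p. Of these longer reads, 11.8% to 20.03% in miR-128-3p (A or G) and 43.4% to 68.0% in miR-218-5p (A or U) carried a base of neither locus. The assigned reads were thus 19.4% to 23.0% of miR-128-3p and 3.32% to 8.65% of miR-218-5p, and the rest cannot be traced. A U at base 22 of miR-128-3p can also be a tail, which would count toward R3hdm1 alone and raise its share. How often this happened was not tested, and the guides differ in such tails. In miR-218-5p a U at base 23, encoded by neither locus, held 225, 202 and 210 RPM in WT mice. In Tau tg mice it held 240, 330 and 331 RPM. These are levels, not shares of the longer reads. The share with A or U was 47.0%, 60.6% and 68.0% in WT and 43.4%, 57.2% and 57.7% in Tau tg, with overlap. In miR-153-3p, where the base after the reference end is an A in the hairpin, a U stood there in 0.0720% to 0.665% of the longer reads. In miR-139-5p, where it is a U, an A stood there in 2.08% to 4.79%. A C, encoded by neither hairpin, stood there in 0.0452% to 0.469% for miR-139-5p and 0% to 0.214% for miR-153-3p. In miR-218-5p a C at base 23 counts toward Slit2 alone. How much of it was not encoded was not tested.

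**Figure D4:**
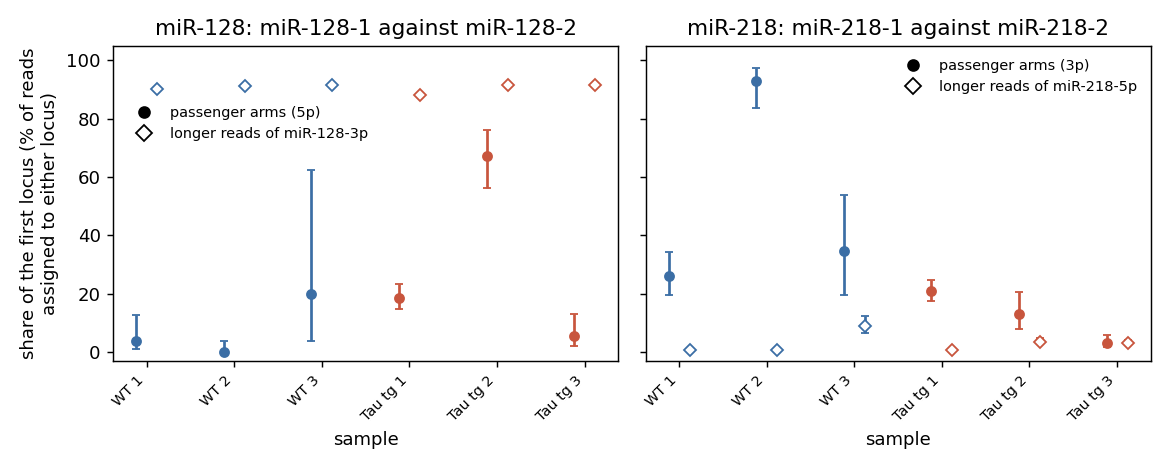
Share of the first locus (miR-128-1 or miR-218-1) per mouse, in percent of the reads assigned to either locus, for passengers (filled) and for guide reads that run past the shared bases (open), with 95% Wilson intervals. The open points sit at 88.1% to 91.7% in miR-128 and at 0.596% to 8.90% in miR-218, while the filled points are spread from 0% to 67.1% and from 2.94% to 93.1%.

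The 5′ end sets the seed, so its position was compared for the 6 members with enough reads. The guides kept the reference 5′ end in nearly all reads, with 97.1% to 97.9% for miR-128-3p, 99.0% to 99.4% for miR-218-5p, 92.3% to 96.9% for miR-139-5p and 95.1% to 97.0% for miR-153-3p. Reads that began 1 base later were the main other form in miR-128-3p, at 1.54% to 2.49%, and in miR-153-3p, at 2.79% to 3.998%. The shift changes the seed of miR-128-3p to one with a viability of 70.2% and that of miR-153-3p to one with 71.8%. In miR-153-5p the reference 5′ end was found in 82.9%, 80.2% and 66.1% of reads in WT and 90.6%, 100% and 88.3% in Tau tg. These groups did not overlap, with an exact permutation p of 0.1, adjusted to 0.6 over 6 members, and Tau tg 2 had only 28 reads. Over the 265 miRNAs that met the same minimum of reads or RPM, this share was higher without overlap in Tau tg for 4.91%. The other 5 members overlapped between the groups, with exact permutation p of 0.2 to 0.9. The passenger miR-128-2-5p was not among these 6 members, with 51, 99 and 4 reads in WT and 259, 27 and 70 in Tau tg. In Tau tg 1, 37.5% of its reads began 1 base earlier, against 0% to 1.01% in the other mice. This shift gives a seed with a viability of 13.0%.

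Mean read lengths of the guides differed little between the groups. They were 21.1 to 21.2 nt for miR-128-3p, 21.3 to 21.5 nt for miR-218-5p, 21.9 to 22.3 nt for miR-139-5p and 21.9 to 22.3 nt for miR-153-3p. In miR-139-3p the group means were 21.3 nt in WT and 21.4 nt in Tau tg. In miR-153-5p they were 21.8 nt in WT and 22.2 nt in Tau tg, a difference of 0.407 nt, with single samples at 21.4 to 22.8 nt. The exact permutation p of the 6 members were 0.5 to 1. The leading read of miR-139-5p had 23 nt, 1 more than the RefSeq sequence, and held 39.0% to 52.8% of its reads. miR-153-3p was the most varied guide in length, with 28.8% to 41.0% of reads at 22 nt and 13.4% to 23.3% at 24 nt.

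Each guide was led by the same sequence in all 6 mice, while the passengers were led by different sequences. The exception was miR-128-1-5p, where 1 sequence led in Tau tg and the WT mice had at most 2 reads. The leading sequence of miR-128-3p held 57.8% to 62.8% of its reads, that of miR-218-5p 53.8% to 69.9% and that of miR-153-3p 24.9% to 37.9%. In miR-139-3p, 4 different sequences led in the 6 mice, and the one with the highest mean, 21 nt long, held 6.86% of reads in WT 1 and 79.4% in WT 3. In miR-218-1-3p 5 different sequences led, in miR-128-2-5p and miR-218-2-3p 4 each, and in miR-153-5p 3. Of the 185 values above 0 for a passenger sequence in a mouse, 73 were 1 to 4 reads, 15 were 5 to 14 reads and 97 were 15 or more. The middle class held 8.11% of these values, against 22.7% for the guides and 19.5% for all miRNAs. Copies made by PCR could not be told from separate molecules.

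**Figure D5:**
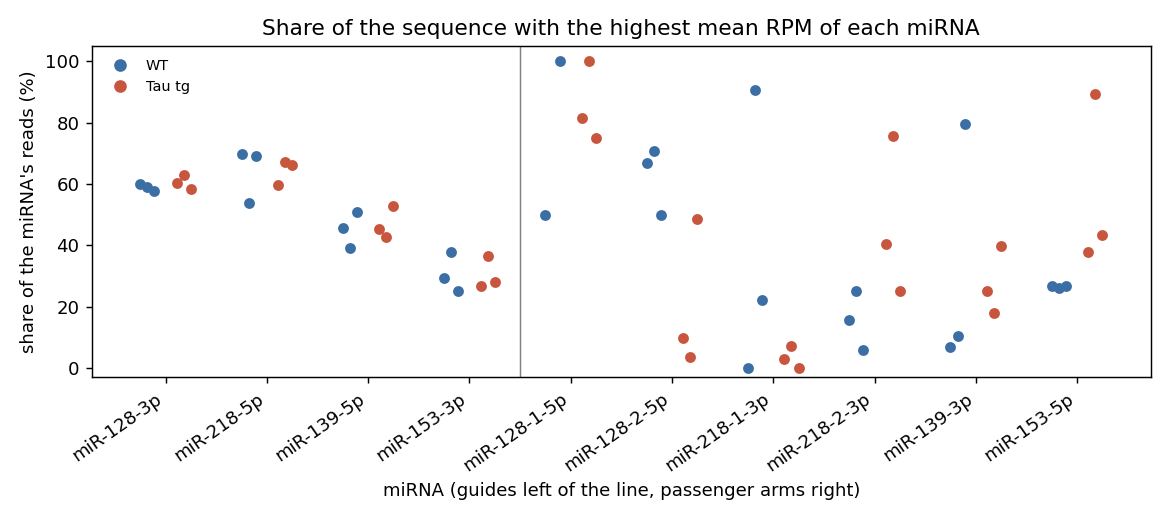
Share of a miRNA's reads, per mouse, held by the sequence that has the highest mean RPM of that miRNA. The points of each guide lie close together, at 57.8% to 62.8% for miR-128-3p, and those of the passengers are scattered, at 6.86% to 79.4% for miR-139-3p.

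The miRNAs with the levels most like each guide over the 6 samples, among 275 others with a mean of at least 100 RPM, were found by the SD of the log2 ratio. miR-128-3p was most like miR-191-5p with an SD of 0.20, followed by miR-101a-3p and miR-34b-3p with 0.29 and 0.32. For miR-218-5p these were miR-138-2-3p with 0.10, let-7d-3p with 0.11 and miR-744-5p with 0.12. For miR-139-5p they were miR-376b-3p with 0.09, miR-150-5p and miR-16-5p, both with 0.14. For miR-153-3p they were miR-30d-5p with 0.10, miR-181c-5p with 0.11 and miR-126a-5p with 0.13. The guides were less like each other, with an SD of 0.25 for miR-139-5p and miR-153-3p, the closest pair, and 0.77 for miR-128-3p and miR-218-5p, the most distant.

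Other miRNAs of neurons and of introns did not pass the test in either direction. Of 17 other neuron-enriched miRNAs, 0 had an unadjusted p under 0.05 and 11 were above 0, with a median of 0.07 against 0.25 for all miRNAs on the log2(RPM + 1) scale. The most abundant, miR-124-3p, a neuronal identity miRNA, had a mean of 77313 ± 14129 RPM in the WT mice and of 60257 ± 11426 RPM in the Tau tg mice (SD, n = 3). Of the list of 18 other intronic miRNAs, 0 had an unadjusted p under 0.05 and 9 were above 0, with a median of 0.04. Its most abundant miRNA was miR-103-3p, with 6007 ± 2418 RPM in the WT mice and 7001 ± 2415 RPM in the Tau tg mice (SD, n = 3). edgeR and DESeq2 each called 1 miRNA of these lists at an unadjusted p under 0.05, miR-149-5p, which stands in both. It held 772 ± 65.2 RPM in the WT mice and 495 ± 54.8 RPM in the Tau tg mice (SD, n = 3). Fragments annotated to the host mRNAs were rare in Ago. Arpp21, Pde2a and Ptprn2 had none, and R3hdm1 had 16 reads in Tau tg 2 alone. Slit2 had 14 reads in WT 1, 14 in Tau tg 1 and 79 in Tau tg 3, and Slit3 had 38 in Tau tg 1 and 50 in Tau tg 2.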

How the data were processed

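Ago proteins were pulled down with a GW182-derived peptide, and the bound short RNAs were sequenced. The authors ran SPOROS, which trims reads, removes rare ones, annotates unique sequences by BLAST and removes artificial sequences. Removal of rare reads leaves low values incomplete. The deposited values are RPM, which the authors scaled to 1000000 reads in each sample. The authors' seed viability, a score in percent, was used as deposited. Their annotation names mm9, and its coordinates were not used. Whole reads were recovered for 100% of values, within 0.01 reads.

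The members and lists were chosen with earlier results of these data known. A member's rows are those whose miRNA name equals it. RPM were summed per miRNA and fitted on log2(RPM + 1) with limma 3.58.1 (R 4.3.3), using its trend option, for miRNAs whose mean reached 1 RPM, with Benjamini-Hochberg adjustment. This scale understates changes of low miRNAs. Shares, 5′ ends and lengths were compared by exact two-sided permutation over 20 assignments. 5′ ends and lengths were taken for members with at least 100 reads or 20 RPM in each sample. Named were all members, their up to 3 leading sequences, the 3 miRNAs most like each guide, and of each list those with an unadjusted p under 0.05 and the most abundant. Reads were aligned without gaps to RefSeq hairpins (GRCm38), where all 10 members matched. GENCODE M21 gave the host genes. Nothing beyond the replicate numbers in the labels says how samples were separated, so p-values measure the spread between samples. The limma, edgeR and DESeq2 fits were tested on simulated counts. edgeR 4.0.16, DESeq2 1.42.0, pandas 2.3.3, NumPy 2.4.6 and SciPy 1.17.1 under Python 3.11.15 were also used, with Matplotlib 3.10.9 for the plots.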

Additional observations from a re-analysis of the deposited data

How the results depend on the processing

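The fit was repeated with a pseudocount of 0.1 or 5 RPM, no filter or a filter at 10 RPM, median-of-ratios or quantile scaling, no trend, edgeR, DESeq2, reads of 19 to 25 nt, the replicate number as a block, and each sample left out. No member passed after adjustment in any of these. The number of members with an unadjusted p under 0.05 was 2 or 3 with all samples and 1 to 3 with a sample left out, being 1 without Tau tg 1, 2 or 3. The number over all miRNAs was 18 to 50 with a sample left out, the highest without WT 1, where miR-218-5p was also called by limma at 0.61, with an adjusted p of 0.634. After adjustment it was 5 by DESeq2 and 0 to 1 with a sample left out.

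Of the called members, miR-139-3p lost its call without Tau tg 1 or 3, at 1.20 and 1.12 against 1.16 with all samples. miR-218-2-3p lost it by edgeR at 1.90 and without Tau tg 2 or 3 at 2.49 and 2.27. With a sample left out it ran from 1.53 without WT 2 to 3.34 without WT 1. miR-128-1-5p lost it in 11 of 17 alternatives, among them both pseudocounts, both scalings and the block, and could not be fitted with the filter at 10 RPM. Directions changed for members that were not called. miR-128-3p was -0.0327 by DESeq2 and -0.14 to 0.64 with a sample left out. miR-128-2-5p was -0.23 by edgeR, -0.25 by DESeq2 and -0.47 to 1.47 with a sample left out, and miR-153-5p -0.94 to 0.50.

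The passenger share differences of miR-139 and miR-218 kept their direction in all alternatives. That of miR-139 was 1.24 to 1.99 percentage points with a sample left out and 0.819 with only the sequences detected in all 6 samples. That of miR-218 was 0.204 to 0.356 with a sample left out. The difference of miR-128 was -0.0621 with the sequences detected in all 6 samples, -0.00168 with reads at the reference 5′ end and -0.0479 to 0.0522 with a sample left out. The same values for miR-153 were 0.159, 0.222 and -1.06 to 0.862. The reference 5′ end of miR-218-5p differed by 0.0233 percentage points with the sequences detected in all 6 samples, and the mean length of miR-139-3p by -0.123 nt. With a sample left out, the reference 5′ end differed by -0.0532 to 0.341 percentage points for miR-128-3p and by -4.91 to 7.59 for miR-139-3p. The mean length then differed by -0.0143 to 0.0349 nt for miR-128-3p, -0.0149 to 0.192 nt for miR-139-5p, -0.0624 to 0.226 nt for miR-139-3p and -0.0765 to 0.0917 nt for miR-153-3p. The causes were not tested.

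The replicate numbers are names only: same-numbered samples correlated at -0.03, -0.11 and 0.11 over 476 miRNAs. With the replicate block the fit called 22 miRNAs at an unadjusted p under 0.05, and the exact p of the miR-139 and miR-218 passenger shares was 0.25, the smallest for 3 pairs. No row names a member beside another miRNA, so that alternative left the members' own values as they were. Low passengers are limited by depth, 3 reads being up to 2.75 RPM.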
